A study of Homo sapiens with 4 samples.

Results

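The CDKN2A, CDKN2B and SMAD4 loci were examined in a map of GATA4 occupancy made by CUT&RUN, an assay in which an antibody guides a nuclease to a chromatin protein so that the DNA around it is released and sequenced. The members are the intervals of the deposited list that lie within 5 Mb of any of the 3 genes, and 31 of the 21308 intervals qualified. Of these, 3 lay near CDKN2A and CDKN2B, the same 3 for both genes, and 28 lay near SMAD4. The list pools 4 libraries of PaTu8988S, an established line from a pancreatic adenocarcinoma, all prepared from 500000 cells with 10 ug of the anti-GATA4 antibody MAB2606. The libraries form a single group with no genetic change or treatment named in the labels, and a control library was not analysed here. The line stands for 1 tumour, and its cell type could not be checked against marker genes because the list holds positions only. The libraries carry the numbers 1 to 4, and nothing in the labels ties a number to a culture of its own.

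CDKN2A encodes p16INK4a and, from another first exon and reading frame, p14ARF. The first inhibits the cyclin D kinases that release the RB pathway, and the second restrains MDM2 and so protects p53. Its neighbour CDKN2B encodes p15INK4b, a further inhibitor of those kinases that TGF-beta signalling can induce. SMAD4, also called DPC4, is the common partner that carries TGF-beta and BMP receptor signals into the nucleus together with receptor-activated SMADs. CDKN2A and SMAD4 are among the tumour suppressors most often inactivated in pancreatic ductal adenocarcinoma. GATA4 is a zinc-finger factor of the foregut endoderm and heart that binds the core letters GATA.

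Each interval has a position and a width, with no score and no read count, and the spread between libraries could not be measured. Positions are those of build hg19: CDKN2A at chr9:21967751-21994490, CDKN2B at chr9:22002902-22009312 and SMAD4 at chr18:48556583-48611411. None of the 3 genes was overlapped by an interval. The 22 autosomes and chromosome X held 21139 intervals, or 7.18 per Mb between the first and the last interval of each chromosome. The members were selected on interval positions, and the genes were chosen with the emptiness of their surroundings already known, so counts, distances and densities are given as a description with no test. Depth is unknown, so emptiness here means the lack of a listed common interval and not a measured lack of GATA4. The DNA copy number of these regions in the line, and how well reads can be placed there, were not examined.

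The sequence before the start of each gene is shown because these starts lie inside stretches with no interval. The windows are the 250 bases upstream of the RefSeq start, read along the gene's strand in GRCh38.p14, with GATA or its reverse complement TATC in capitals. CDKN2A has a window for each of its first exons. The windows are chr9:21995325-21995574 (minus strand, ARF exon), chr9:21974858-21975107 (minus strand, p16 exon), chr9:22009306-22009555 (minus strand) and chr18:51029963-51030212 (plus strand), all in GRCh38.p14 and not in the build of the intervals.
CDKN2A, ARF exon: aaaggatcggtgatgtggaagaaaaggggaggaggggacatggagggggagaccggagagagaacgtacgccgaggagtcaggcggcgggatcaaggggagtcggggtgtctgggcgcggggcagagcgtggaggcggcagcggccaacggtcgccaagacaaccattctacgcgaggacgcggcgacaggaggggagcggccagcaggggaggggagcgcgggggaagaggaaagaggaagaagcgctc
CDKN2A, p16 exon: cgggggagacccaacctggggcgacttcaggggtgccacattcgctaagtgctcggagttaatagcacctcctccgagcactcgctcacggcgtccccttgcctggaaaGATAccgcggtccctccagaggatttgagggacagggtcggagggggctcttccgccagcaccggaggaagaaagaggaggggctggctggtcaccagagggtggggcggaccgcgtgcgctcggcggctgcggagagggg
CDKN2B: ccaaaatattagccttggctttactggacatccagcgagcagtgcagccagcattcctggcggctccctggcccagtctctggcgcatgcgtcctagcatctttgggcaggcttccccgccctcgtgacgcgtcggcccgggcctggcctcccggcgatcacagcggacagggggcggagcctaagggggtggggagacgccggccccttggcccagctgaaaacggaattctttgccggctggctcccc
SMAD4: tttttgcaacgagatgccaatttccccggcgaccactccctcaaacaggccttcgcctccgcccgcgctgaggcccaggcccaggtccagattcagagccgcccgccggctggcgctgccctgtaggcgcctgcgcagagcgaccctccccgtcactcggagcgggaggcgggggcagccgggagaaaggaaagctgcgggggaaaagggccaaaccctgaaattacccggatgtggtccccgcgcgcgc
Only the p16 window held the core letters, as 1 match on the gene's strand beginning at base 110. The ARF, CDKN2B and SMAD4 windows held 0 matches. Of 35116 RefSeq windows of the same length, 45.6% held at least 1 match to GATA on either strand. The longer form of the motif, searched as AGATAA or TGATAA and with G in place of the last letter of each, contains the core letters and was absent from all 4 windows on both strands and was present in 22.3% of windows overall. All 4 windows held more CpG pairs than the median window, which held 11: there were 24 for ARF and 25 for SMAD4, above the upper quartile of 23, and 20 for p16 and 18 for CDKN2B, below it. A match of letters is a description of reference sequence and not a binding site.

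CDKN2A and CDKN2B lay together at the edge of a stretch of 7.80 Mb with no interval. The stretch ran from 14302053 to 22104100 on chromosome 9 and held both genes whole. It lay almost wholly on the side of lower positions, towards the end of the short arm: 98.3% of its length came before the start of CDKN2A and 1.41% after its end. On that lower side the nearest interval was 7.67 Mb from CDKN2A. On the other side it was 110 kb from the end of CDKN2A and 94.8 kb from the end of CDKN2B. The 2 sides thus differed greatly, and the genes were not in the middle of the empty ground.

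Among the 21116 gaps between neighbouring intervals of the list, this stretch was the 10th longest, and gaps of that length or more made up 3.89% of all gap length. On chromosome 9 it was 2nd of 537, after the gap of 21.1 Mb from 45364020 to 66459247. The stretch of 7.71 Mb directly before it, from 6594837 to 14301726, was the 11th longest of the list. A single interval of 327 bp, from 14301726 to 14302053, parted them, and without it the empty ground around CDKN2A and CDKN2B would run to 15.5 Mb. Leaving out the interval at the higher end instead gave 7.87 Mb.

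The 3 members at this locus all lay at higher positions than CDKN2B. The first ran from 22104100 to 22104357 (257 bp) and the second from 22171708 to 22172032 (324 bp), which is 162 kb beyond the gene. The third ran from 25700459 to 25700936 (477 bp), 3.69 Mb beyond it. All 3 were narrower than the list's median width of 586 bp. The interval just outside the 5 Mb limit ran from 27065323 to 27065646 (323 bp) and missed it by 56.0 kb. Toward lower positions no interval lay within the limit, and the first one outside it was that at 14301726.

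How few this is depends on the distance looked at. Within 0.25 Mb of CDKN2A there were 2 intervals, where the median window of the same length held 1. Within 0.5 Mb there were 2 against a median of 3, within 1 Mb still 2 against 6, and within 2 Mb 2 against 12. Within 5 Mb there were 3 against 35 (quartiles 19 and 68), and 3.09% of 27137 such windows, placed every 100 kb, held 3 or fewer. The same share for CDKN2B was 3.09%. Within 10 Mb there were 9 against 75, and 2.06% of windows held as few. Up to 0.25 Mb from CDKN2A the count thus lay at or above the median of the list, and the shortfall grew with distance. Windows overlap their neighbours and some fall on centromeres. Without windows touching the longest gap of their chromosome the share at 5 Mb was 1.72%. That leaves out the longest empty ground of every chromosome and not only centromeres, so it lowers the share by construction. Among windows of chromosome 9 alone, those over the locus included, the share was 16.7%.

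**Figure D1:**
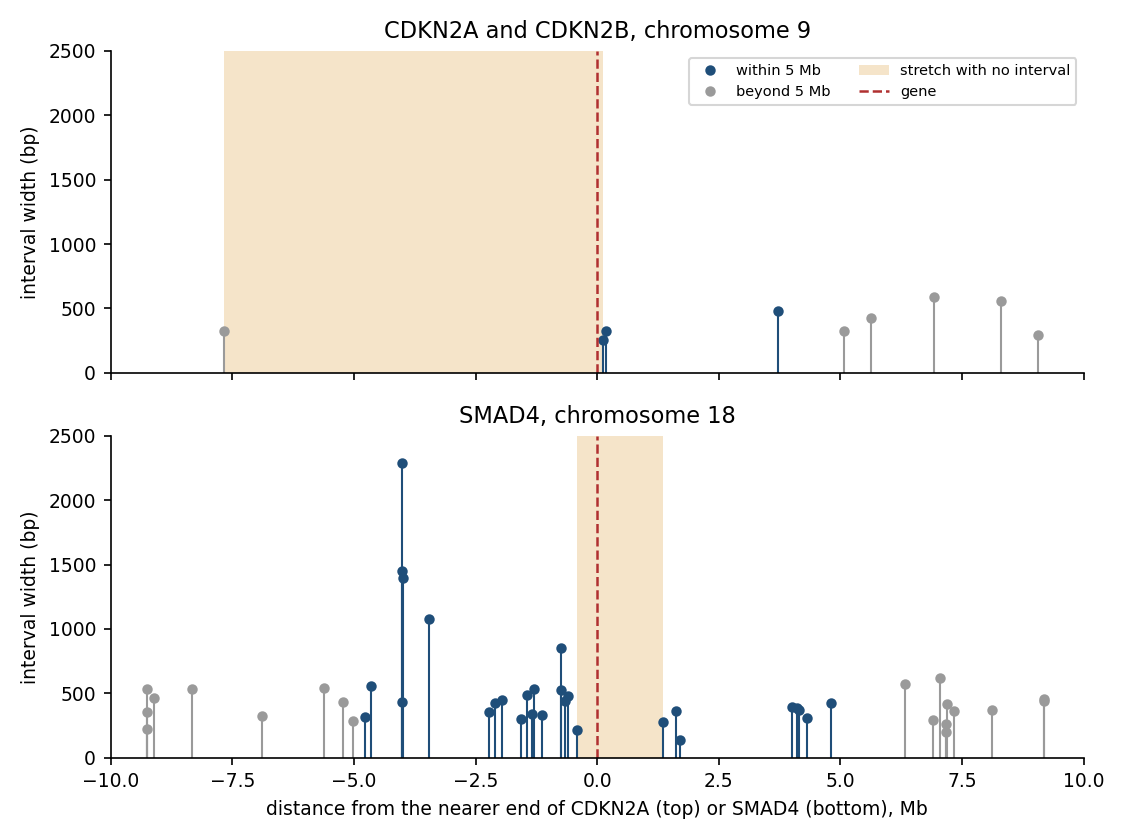
Intervals within 10 Mb of CDKN2A (top) and SMAD4 (bottom), plotted by distance from the nearer gene end in Mb and by width in bp; each point is 1 interval, blue within 5 Mb of CDKN2A or SMAD4 and grey beyond. The shaded stretch with no interval reaches 7.67 Mb to lower positions from CDKN2A, but only 0.418 Mb from SMAD4.

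The nearest interval to each gene was not unusually far by the standard of the list. For a window as long as CDKN2A the nearest interval was as far or farther in 54.9% of 29437 windows, and the median distance was 140 kb. For CDKN2B the share was 59.8%. For SMAD4, whose nearest interval was 418 kb from the start of the gene, it was 25.1%, against a median distance of 126 kb. Among windows of chromosome 18 alone the share for SMAD4 was 41.2%. By this measure SMAD4 lay farther from an interval than CDKN2A and CDKN2B, the reverse of the order given by the length of the empty stretch.

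SMAD4 lay inside a stretch of 1.83 Mb with no interval, from 48138071 to 49965832 on chromosome 18. Of this, 0.418 Mb lay before the gene and 1.35 Mb after it. The stretch ranked 228th of the 21116 gaps of the list, 12th of 1104 on chromosome 18, and 9th of the 67 gaps beyond 25 Mb on that chromosome. Gaps of that length or more made up 25.6% of all gap length in the list, so much of the empty ground lies in gaps as long. It was 9.84 times as long as the median gap there, 186 kb. The longest gap beyond 25 Mb was 6.90 Mb, from 61140019 to 68044117, and does not hold SMAD4.

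The 28 members near SMAD4 fell unevenly on its 2 sides, with 20 at lower and 8 at higher positions. The 3 nearest at lower positions ran from 48137856 to 48138071 (215 bp), from 47951534 to 47952016 (482 bp, 605 kb away) and from 47900393 to 47900832 (439 bp, 656 kb away). Of the 20, 13 lay between 0.418 and 2.23 Mb from the gene. The 3 nearest at higher positions ran from 49965832 to 49966109 (277 bp), from 50227167 to 50227529 (362 bp, 1.62 Mb away) and from 50319114 to 50319252 (138 bp, 1.71 Mb away). The last of these was the narrowest member. After it came a second empty stretch of 2.29 Mb, and the remaining 5 lay between 4.00 and 4.80 Mb from the gene.

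The widest members stood together. A group of 4 intervals spanned 11.3 kb from 44546295 to 44557608, about 4.00 Mb before SMAD4, and the first pair was only 93 bp apart. Their widths were 434, 1449, 2288 and 1394 bp, and the 2288 bp interval was the widest of all 31 members. The next interval toward the gene, from 45101073 to 45102150, was 1077 bp wide. It and the 3 widest of the group were the 4 members of 1 kb or more. A pair 7.06 kb long, from 47807460 to 47814516, held intervals of 850 and 523 bp. All other members stood more than 10 kb from their neighbours. On the lower side 5 of 20 reached the list's median width, and on the higher side 0 of 8 did, where the widest was 422 bp.

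At the 5 Mb limit, the member farthest from SMAD4 at lower positions began at 43779520 (316 bp), 4.78 Mb away. The next one out began at 43547223 (287 bp) and missed the limit by 9.07 kb. At higher positions the last member began at 53415657 (422 bp) and the next interval out at 54937443 (576 bp), 6.33 Mb away.

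In number, the surroundings of SMAD4 lay within the middle range of the list. Within 0.25 Mb there was no interval, where the median window held 1, and within 1 Mb there were 5 against a median of 6. Within 2 Mb there were 14 against 12, and within 5 Mb 28 against 35 (quartiles 19 and 68). Of 27129 windows of the latter length, 41.0% held 28 or fewer, and among windows of chromosome 18 alone 64.4% did. At 10 Mb the count was 47 against 75, and 28.0% of windows held as few. The count around SMAD4 stayed within or at the quartiles of the list at every distance examined, whereas that around CDKN2A left them from 2 Mb on.

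**Figure D2:**
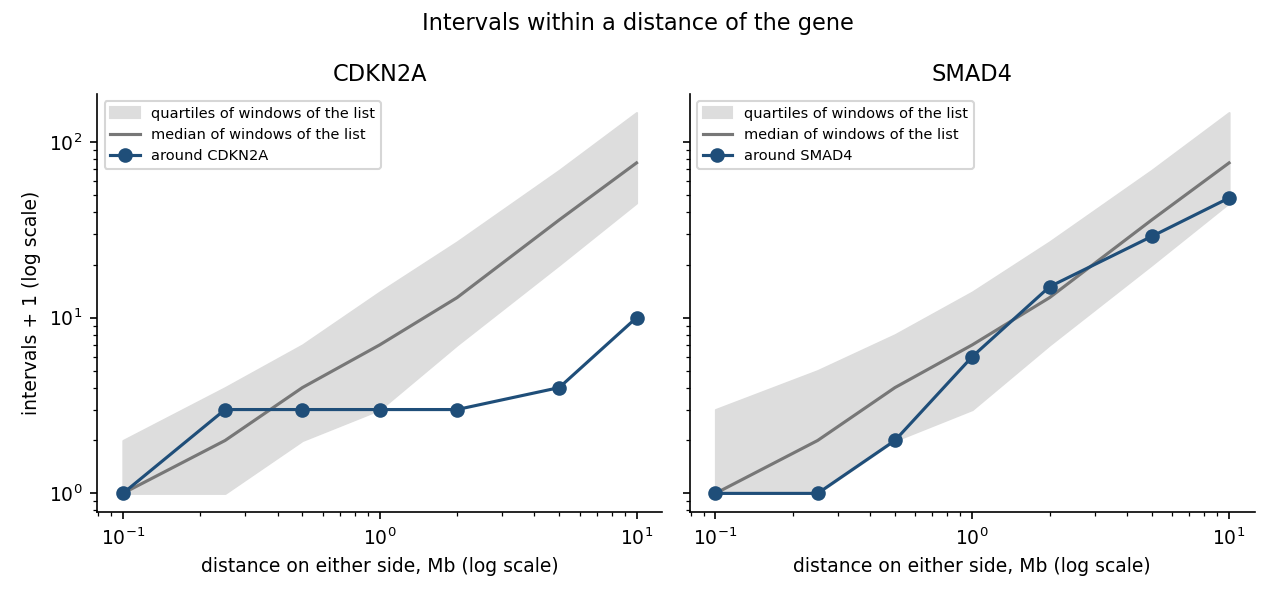
Number of intervals, plus 1, within a given distance in Mb on either side of CDKN2A (left) and SMAD4 (right), both axes on log scales. The line and grey band give the median and quartiles of windows of the same length placed along the whole list; at 5 Mb CDKN2A had 3 and SMAD4 28 intervals against a median of 35.

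Both loci belong to sparse parts of their chromosomes. The first 30 Mb of chromosome 9 held 13 intervals, or 0.434 per Mb over 29.98 Mb, and the rest of the chromosome 525, or 4.72 per Mb. The sparse part thus made up 21.3% of the length and 2.42% of the intervals (exact 95% binomial interval 1.29% to 4.10%), and the rest was 10.9 times as dense (6.32 to 20.6). The ratio was 5.21 with the dividing point at 35 Mb, and 7.32 without the fullest 5 Mb window of the rest, which held 188 of its 525 intervals. The binomial interval covers counting error only and takes intervals as independent, which neighbours are not. By windows of 5 Mb the counts were 2, 4, 1, 0, 2 and 4 in order from the start of the chromosome, and CDKN2A and CDKN2B lay in the window with 2 that follows the empty one. The next 2 windows beyond 30 Mb held 19 and 21. The median window of the list held 15 (quartiles 7.75 and 34).

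The density of the first 30 Mb of chromosome 9 was 6.04% of that of the list. Stretches of that length with 13 intervals or fewer made up 0.798% of 22546 placements, all of them on chromosomes 9 and X. The share was 0.278% once placements touching the longest gap of their chromosome were left out. That removes empty ground and so lowers the share by construction. The part itself, and copies shifted along it, count among the placements in both shares. The median of all placements was 114 intervals. The 3 longest gaps of this part, of 5.55, 7.71 and 7.80 Mb, together took up 70.2% of it, and they were 3 of the 21 gaps of 5 Mb or more in the whole list. The 10 intervals of the part that were not members gave 0.502 per Mb, against 0.299 per Mb within 5 Mb of CDKN2A and CDKN2B. These values rest on 10 and 3 intervals and were not tested against each other.

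The part of chromosome 18 beyond 25 Mb held 68 intervals, or 1.29 per Mb over 52.9 Mb, and the part before it 1037, or 41.5 per Mb. The sparse part made up 67.9% of the length and 6.15% of the intervals (exact 95% binomial interval 4.81% to 7.74%), and the rest was 32.3 times as dense (25.2 to 41.9, counting error only). The 5 windows of the dense part held 71, 35, 111, 230 and 590 intervals, and without the fullest of them the ratio was 17.4. This lay below the range of 25.2 to 41.9, which takes intervals as independent although neighbours are not. The density beyond 25 Mb was 17.9% of that of the list, and stretches of that length with 68 intervals or fewer made up 6.80% of 17598 placements, on chromosomes 1, 4, 9, 18 and X. Without placements touching the longest gap of their chromosome the share was 3.57%. On chromosome 18 that gap, of 6.90 Mb from 61140019 to 68044117, lies inside the sparse part. The part itself, and shifted copies reaching the gap, were thus left out, which lowers the share by construction. This share cannot be compared with that for chromosome 9, where the sparse part stayed among the placements.

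Within the sparse part of chromosome 18, SMAD4 lay where intervals were most frequent. The 11 windows of 5 Mb beyond 25 Mb held 7, 4, 6, 11, 15, 8, 9, 3, 1, 1 and 3 intervals, and SMAD4 lay in the window with 15. Its 28 members were 41.2% of the 68 intervals and gave 2.79 per Mb, against 0.934 per Mb for the other 40. Toward the end of the chromosome, the last 4 windows held 8 intervals in all.

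**Figure D3:**
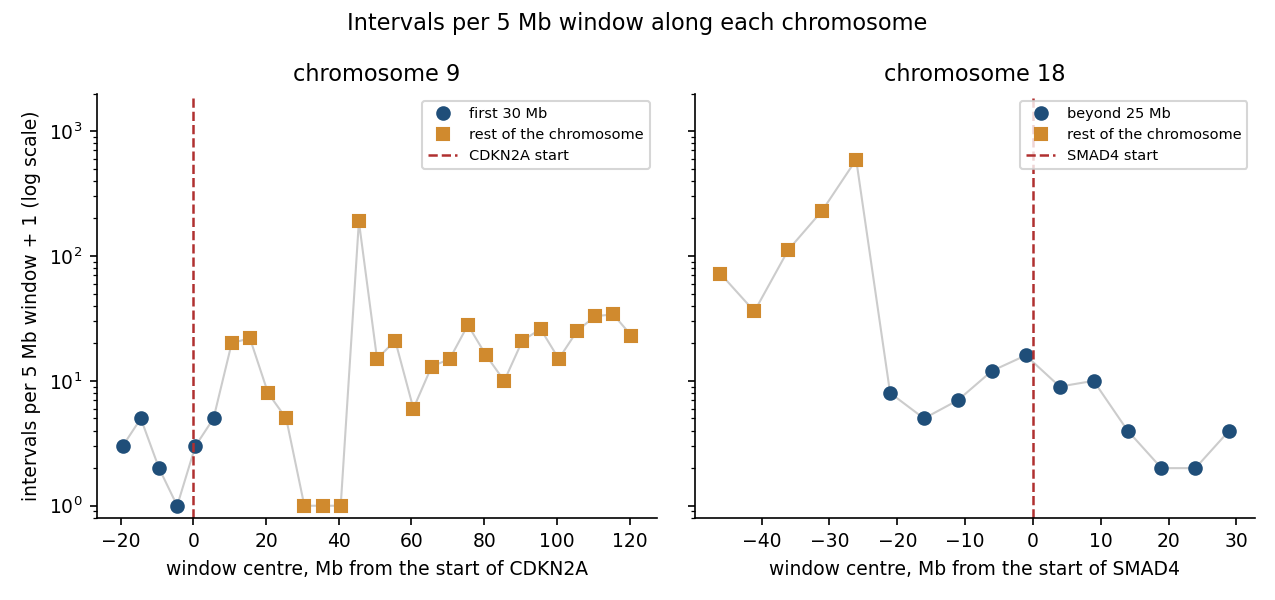
Intervals per 5 Mb window, plus 1 and on a log scale, along chromosomes 9 (left) and 18 (right), by distance in Mb of the window's centre from the start of CDKN2A or SMAD4. Blue points are the sparse parts (0 to 4 intervals per window on chromosome 9, 1 to 15 on chromosome 18) and orange squares the rest; the 3 squares with no interval on chromosome 9 fall in its gap of 21.1 Mb.

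Gaps followed the same order. The median gap was 974 kb in the first 30 Mb of chromosome 9 (12 gaps) and 22.4 kb in the rest of it (524 gaps). It was 186 kb beyond 25 Mb on chromosome 18 (67 gaps) and 1.61 kb before (1036 gaps), and 134 kb among the members around SMAD4 (27 gaps). Gaps of 10 kb or less were 1 of 12 in the sparse part of chromosome 9 and 7 of 67 in that of chromosome 18, against 224 of 524 and 826 of 1036 in the rest.

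**Figure D4:**
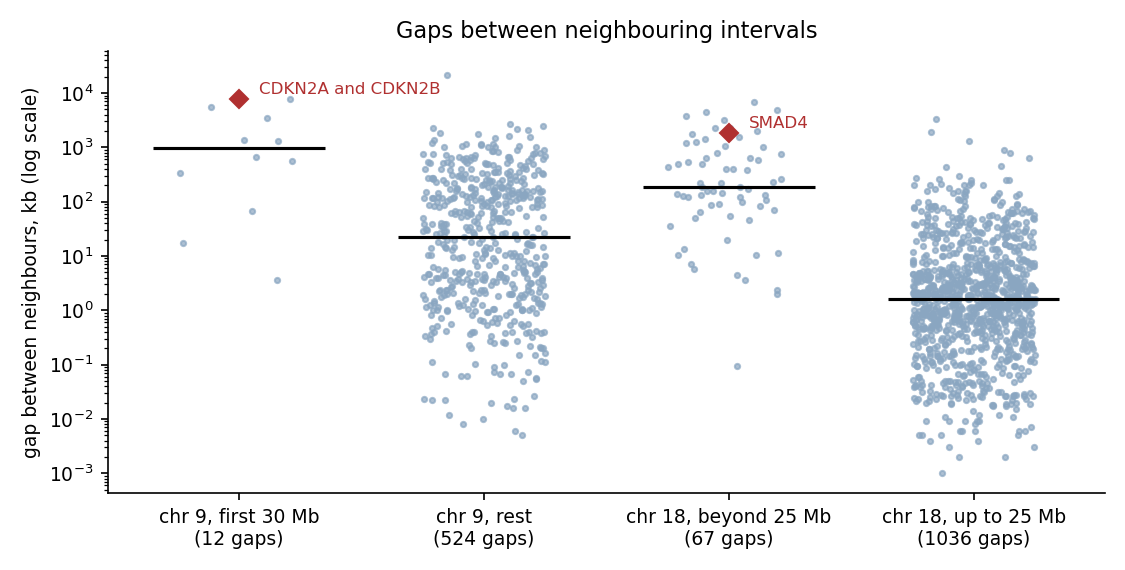
Gaps between neighbouring intervals in kb, on a log scale, in 4 parts of chromosomes 9 and 18; each point is 1 gap, black lines are medians (974, 22.4, 186 and 1.61 kb from left to right) and diamonds the stretches that hold the genes. The stretch holding CDKN2A and CDKN2B is the longest of its part, and that holding SMAD4 the 9th longest of its own.

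Width, which the choice of members did not use, was lower where intervals were few. The 31 members had a median width of 422 bp (quartiles 328.5 and 506.5 bp), against 586 bp for the list (quartiles 416 and 859 bp), and 5 of them (16.1%) reached the list's median. Near SMAD4 the median was 422 bp, and for the other 40 intervals beyond 25 Mb it was 418 bp, so the widths around SMAD4 resembled those of the rest of its sparse part. Before 25 Mb the median was 863 bp and 72.7% of intervals reached the list's median. On chromosome 9 the medians were 343 bp in the first 30 Mb and 514 bp beyond. Counting bases instead of intervals, 0.217 kb per Mb was covered in the first 30 Mb of chromosome 9 against 2.96 beyond, and 0.635 kb per Mb beyond 25 Mb on chromosome 18 against 45.8 before. That density and width go together across the chromosomes of this list was already known, so these widths are no independent support, and intervals of 1 pooled list are not replicates.

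The neighbours of each gene were read from the order of protein-coding genes in the RefSeq table of GRCh38.p14, with no interval assigned to any of them. Order alone does not show which neighbours lie inside the stretches with no interval. Before CDKN2A come a run of type I interferon genes (among them IFNA2, IFNA8, IFNA1 and IFNE) and MTAP, which recycles methylthioadenosine. After CDKN2B come DMRTA1 and ELAVL2, a neuronal RNA-binding protein. The antisense RNA gene CDKN2B-AS1 overlaps both CDKN2A and CDKN2B in that table. SMAD4 follows ME2, a mitochondrial malic enzyme, and ELAC1, a tRNA-processing enzyme, and precedes MEX3C and DCC, the netrin receptor once studied as a tumour suppressor. The SMAD genes SMAD2 and SMAD7, a receptor-activated and an inhibitory SMAD, lie before SMAD4 on the same chromosome, at lower positions. All 10 listed neighbours of each locus were found on the same chromosome as their gene, which follows from their choice as neighbours.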

How the data were processed

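GATA4 occupancy was measured by CUT&RUN in 4 libraries of PaTu8988S. The authors deposited 1 list of intervals common to the 4 libraries with chromosome, start and end in bp, and no other value; per the submitters' processing notes SEACR, HOMER and build hg19 were used, with versions, parameters and the overlap that made an interval common not given in the sources used here. The list held 21308 intervals and 1 blank line, with 0 overlapping neighbours. The mitochondrial interval runs from 1 to 16571, the length of the mitochondrial sequence in the UCSC release of hg19. Whether starts count from 0 or 1 is not stated, so a width may be 1 bp larger. Depth per library is unknown.

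Intervals on the 22 autosomes and chromosome X were analysed (99.2%). A member overlaps the gene extended by 5 Mb on each side. Parts and 5 Mb windows were assigned by interval centre, and lengths run from the first to the last interval of a chromosome. Windows of the list were placed every 100 kb between those limits, and those over the loci and parts described were kept unless stated. No test was made. The functions for gaps, windows and densities were tested on simulated data. Values were computed with Python 3.11.15, pandas 2.3.3 and numpy 2.4.6, exact binomial intervals with scipy 1.17.1, and plots with matplotlib 3.10.9. Named were the 3 genes, the 3 nearest intervals on each side, those at the limit and, chosen after their values were seen, the close groups and wide members. The members and lists were chosen with earlier results of these data known. The lists of RB, p53 and TGF-beta pathway genes were not used, since an annotation of hg19 was not analysed here, and for the same reason sequences of the intervals are not shown.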

Additional observations from a re-analysis of the deposited data

How the results depend on the processing

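Of 38 recomputed values, 20 lay within 1.5 times the reported value (9 of 16 density ratios and 11 of 22 other values) and 18 moved further. Of the 16 density ratios 0 reversed, and the other values have no direction to reverse. The values for CDKN2B repeat or nearly repeat those for CDKN2A, because both genes lie in the same stretch. Keeping only intervals at or above the median width left 5 of the 31 members, lengthened the stretch around CDKN2A and CDKN2B to 22.7 Mb and that around SMAD4 to 7.84 Mb, and raised the chromosome 18 ratio to 158; fewer intervals lengthen gaps by construction. Without the interval at its lower end the stretch around CDKN2A and CDKN2B was 15.5 Mb. The chromosome 9 ratio was 5.21 divided at 35 Mb and lay between 7.32 and 19.6 otherwise. The chromosome 18 ratio, 32.3 as reported, was 22.5 divided at 35 Mb, 19.6 after merging intervals within 1 kb, 17.4 without the fullest window, 18.5 as a ratio of median windows and 72.1 by bases covered. The share of windows with as few intervals as around CDKN2A or CDKN2B was 1.72% without the longest gaps and 16.7% on chromosome 9. Leaving out the longest gaps lowers such a share by construction. For SMAD4 the share was 64.4% on chromosome 18. These window shares and the loss of an end interval were chosen after seeing the data. No paired analysis was possible because all libraries form 1 group pooled in 1 list, and for the same reason no library could be left out. Depth is unknown, so whether weaker occupancy lies in the empty stretches could not be seen. DNA copy number and the placing of reads in these stretches were not tested either.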
